A study of Mus musculus with 9 samples.

Results

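The 6 libraries from both LILRB4+/+ genotypes, with and without an intact Scg2, were set as one side against the 3 WT libraries, out of 9 libraries in the series. They were chosen by the genotype label alone. LILRB4+/+ gave 3 libraries, LILRB4+/+ SCG2-/- gave 3, and WT gave 3. All were poly-A RNA of monocytic myeloid-derived suppressor cells (M-MDSCs) sorted from tumours of mice bearing MC38, a mouse colon carcinoma line. The comparison asks which differences from WT are seen in both LILRB4+/+ genotypes, whatever the state of SCG2. Neither the nature of the LILRB4 allele nor its promoter, the sorting gate, the age of the mice or the mouse behind each library is given in the labels. P-values therefore rest on the spread from library to library, part of which may be technical.

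M-MDSCs are immature monocyte-like cells that accumulate in tumours and restrain T cells, by using up arginine and cystine, by making prostaglandins and by secreting cytokines. LILRB4 is an inhibitory immune receptor of myeloid cells whose tail recruits tyrosine phosphatases, and its closest mouse genes are Lilrb4a and Lilr4b. SCG2 is a secreted granin of neuroendocrine granules. IL-6 signals through JAK kinases to the transcription factor STAT3, which induces its own feedback inhibitor SOCS3.

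The counts summed to 14501163 to 27219202 per library. Monocyte transcripts were present in all 9 libraries. Itgam, which encodes CD11b, stood at 98.3 to 395 CPM (counts scaled to library size) in LILRB4+/+ genotypes and 158 to 279 CPM in WT. Ly6g, the defining neutrophil marker, was at 0 to 0.190 CPM. Markers of other cells were present as well. The summed level of 32 T and NK cell markers was 3189, 419 and 2289 CPM in LILRB4+/+ replicates 1 to 3, 1676, 2927 and 2786 CPM in LILRB4+/+ SCG2-/-, and 1491, 393 and 596 CPM in WT. LILRB4+/+ replicate 2 stood with WT replicates 2 and 3 at the low end, and also apart from the other LILRB4+/+ genotype libraries on the first principal component (53.1% of variance). Because RNA was pooled over cells, fewer cells of a type and less RNA per cell cannot be told apart.

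Both LILRB4+/+ genotypes shared a small set of genes above WT that passed the test. Samd11, Ankrd33b, Mtmr7 and Osgin2 rose, by 1.84, 1.36, 1.13 and 0.91 on the log2 scale, and all had an edgeR adjusted p of 0.0395 (quasi-likelihood test, Benjamini-Hochberg over all 9877 genes of the count table). These 4 genes are 0.0405% of the genes tested, and 0 genes (0%) passed in the lower direction. The count table leaves out genes with under 100 counts in LILRB4+/+ replicate 1 or 3. Genes low in LILRB4+/+ can thus be missing from this test, while Samd11, with 86, 52 and 62 counts in WT, was kept. At an unadjusted edgeR p under 0.05 stood 1145 higher genes (11.6%) and 994 lower genes (10.1%). All 4 also had an unadjusted p under 0.05 in each genotype on its own against the same WT libraries. The same fit had chosen these genes, so that is a description and not a test of overlap. For LILRB4+/+ SCG2-/- alone against WT, the edgeR adjusted p was 0.246 for Samd11 and 0.317 for Ankrd33b, Mtmr7 and Osgin2. DESeq2 called 509 higher (5.15%) and 215 lower genes (2.18%), and limma on log2(FPKM + 1) called 0 and 0 of 12910, with 1392 (10.8%) and 1192 (9.23%) at an unadjusted p under 0.05. Each genotype was also set alone against the same WT libraries. LILRB4+/+ had 171 higher (1.73%) and 51 lower genes (0.516%) by edgeR. LILRB4+/+ SCG2-/- had 0 in each direction by edgeR and by limma, 69 (0.699%) and 23 (0.233%) by DESeq2, and 837 (8.47%) and 603 (6.11%) at an unadjusted edgeR p under 0.05. Leaving out LILRB4+/+ replicate 2 gave 564 higher genes (5.71%) and 189 lower genes (1.91%), while leaving out LILRB4+/+ replicate 1 or 3, LILRB4+/+ SCG2-/- replicate 2, or WT replicate 2 or 3 gave 0 in each direction.

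Samd11 encodes a SAM-domain protein known from mouse photoreceptors, where it acts with Polycomb proteins (chromosome 4, 156246966 to 156255657, GRCm38, minus strand). Its level was 11.7, 10.6 and 12.5 CPM in LILRB4+/+, 9.46, 12.1 and 12.2 CPM in LILRB4+/+ SCG2-/-, and 4.27, 2.22 and 3.09 CPM in WT. The lowest library of either LILRB4+/+ genotype lay above the highest WT library, and the LILRB4+/+ genotypes overlapped each other. The difference of LILRB4+/+ SCG2-/- from LILRB4+/+ was -0.04 on the log2 scale, with a 95% interval of -0.59 to 0.51.

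Ankrd33b encodes an ankyrin-repeat protein (chromosome 15, 31291478 to 31367726, minus strand). It stood at 87.1, 80.6 and 78.5 CPM in LILRB4+/+, 49.2, 46.3 and 35.5 CPM in LILRB4+/+ SCG2-/-, and 28.7, 19.8 and 21.5 CPM in WT. Here the 3 genotypes formed 3 separate levels, with LILRB4+/+ SCG2-/- in between. The log2 difference of LILRB4+/+ SCG2-/- from LILRB4+/+ was -0.91 (95% interval -1.30 to -0.52, edgeR adjusted p = 0.222 over all genes).

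Mtmr7 encodes a myotubularin-related phosphoinositide phosphatase (chromosome 8, 40551095 to 40634797, minus strand). Its levels were 22.5, 19.3 and 25 CPM in LILRB4+/+, 18.3, 17.4 and 16.7 CPM in LILRB4+/+ SCG2-/-, and 10, 7.65 and 9.42 CPM in WT. Osgin2, a relative of an oxidative stress-induced growth inhibitor (chromosome 4, 15997121 to 16013888, minus strand), stood at 139.7, 119 and 133 CPM in LILRB4+/+, 95.8, 111 and 85.4 CPM in LILRB4+/+ SCG2-/-, and 60, 64.1 and 55.5 CPM in WT. For both genes each LILRB4+/+ genotype lay wholly above WT. With the counts recovered from FPKM, which cover 15743 genes, 2 genes (0.0127%) passed as higher, Samd11 and Ankrd33b (edgeR adjusted p = 0.0336 each), and 0 as lower, with 1666 (10.6%) and 1305 (8.29%) at an unadjusted p under 0.05. Mtmr7 and Osgin2, whose counts are the same in both tables, stood at an edgeR adjusted p of 0.0573 in that larger test. With the summed T and NK marker level as a covariate, the log2 fold changes of the 4 genes were 1.62, 1.27, 0.98 and 0.84 in the order Samd11, Ankrd33b, Mtmr7 and Osgin2, and 0 genes passed after adjustment in that fit.

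**Figure D1:**
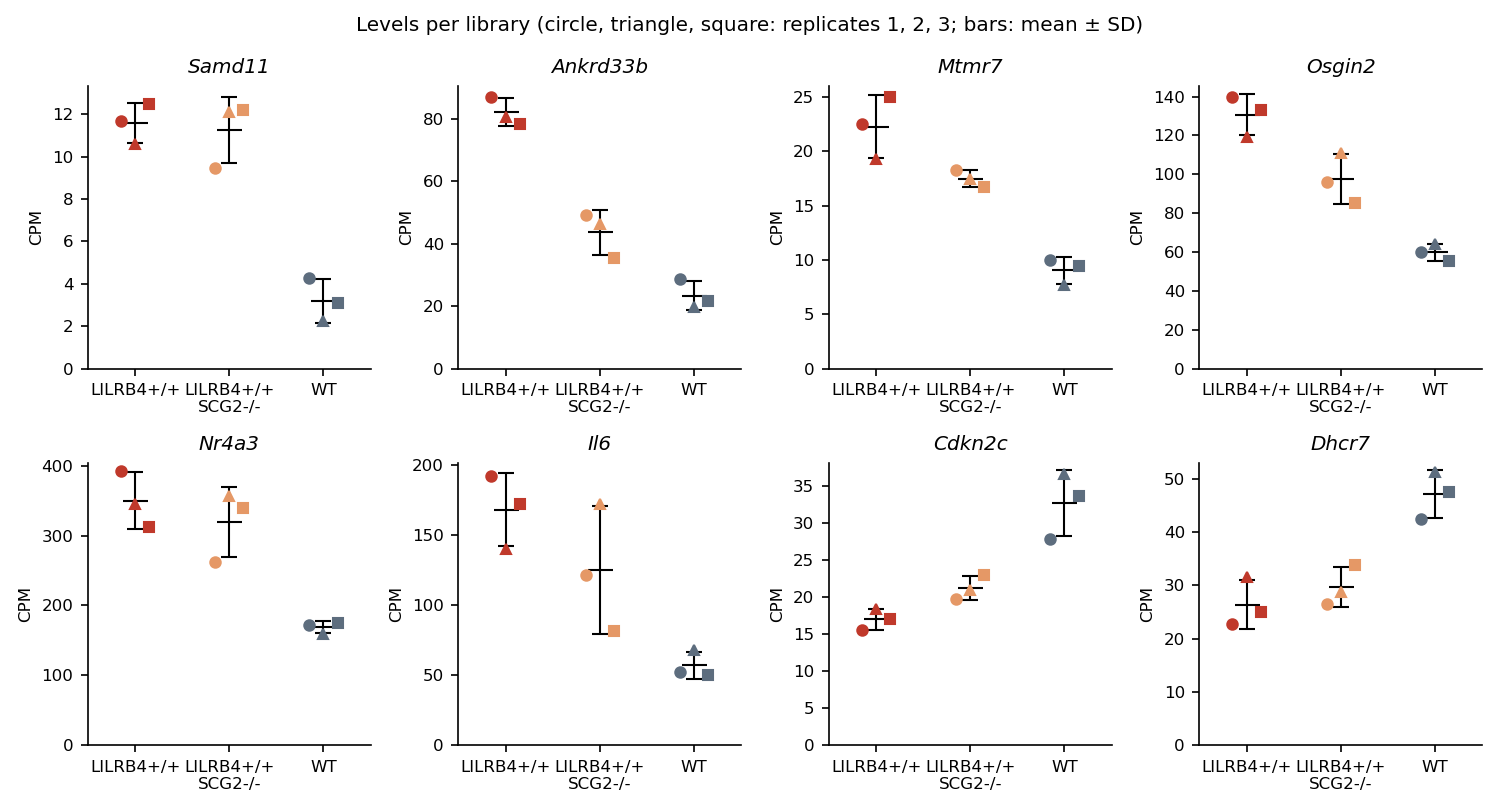
Level in CPM of 8 genes in each library, with LILRB4+/+ left, LILRB4+/+ SCG2-/- in the middle and WT right; symbols are replicates and bars the mean ± SD of 3 libraries. Samd11 sits at 9.46 to 12.5 CPM in the LILRB4+/+ genotypes and at 2.22 to 4.27 CPM in WT, whereas Ankrd33b has a level of its own in each genotype.

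Below the threshold lay a wider group whose 6 libraries did not overlap WT. In all, 440 genes (4.45%) had all 6 LILRB4+/+ genotype libraries above all 3 WT libraries, and 484 (4.9%) had all 6 below. From these, the 25 higher and 15 lower genes with the smallest edgeR p are described next. They were chosen after their values were seen, and apart from the 4 genes above none passed, at edgeR adjusted p up to 0.0742. Pooled log2 fold changes ran from 0.63 to 1.84 among the higher genes and from -0.81 to -0.56 among the lower ones.

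Among the higher genes with little difference between the LILRB4+/+ genotypes were transcription factors of the immediate-early response. Nr4a3, an orphan nuclear receptor, stood at 393, 345 and 312 CPM in LILRB4+/+, 262, 357 and 339 CPM in LILRB4+/+ SCG2-/-, and 172, 159 and 175 CPM in WT. Egr3, a zinc-finger factor, stood at 41.3, 40 and 47.8 CPM in LILRB4+/+, 37.1, 40.1 and 35.3 CPM in LILRB4+/+ SCG2-/-, and 24.8, 20.3 and 24.6 CPM in WT. Both genes were higher in every LILRB4+/+ genotype library than in any WT library, and their differences of LILRB4+/+ SCG2-/- from LILRB4+/+ were -0.13 (95% interval -0.48 to 0.22) and -0.20 (-0.52 to 0.12). Bcl2l11, which encodes the pro-apoptotic protein BIM, and Pik3r1, the p85 regulatory subunit of PI3-kinase, had pooled log2 fold changes of 0.91 and 0.95. Their differences of LILRB4+/+ SCG2-/- from LILRB4+/+ were -0.16 (-0.53 to 0.21) and 0.04 (-0.37 to 0.45). St8sia4, a polysialic acid synthase, and Cpeb4, an RNA-binding regulator of translation, stood at 0.87 and 0.78 with differences of -0.09 (-0.45 to 0.27) and -0.15 (-0.50 to 0.19).

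Other genes of the 25 had a step between the genotypes. Cdk5r1, the p35 activator of CDK5, stood at 58.9, 40.6 and 64.3 CPM in LILRB4+/+, 25.6, 32 and 21.1 CPM in LILRB4+/+ SCG2-/-, and 18.4, 11.9 and 12.8 CPM in WT. Ptpre, a tyrosine phosphatase, stood at 118, 117 and 107 CPM in LILRB4+/+, 70.9, 76.5 and 68.3 CPM in LILRB4+/+ SCG2-/-, and 57.3, 56.9 and 61 CPM in WT. In both, the LILRB4+/+ SCG2-/- libraries lay between the other groups without touching either. Of the 25 genes, 24 had a lower fitted level in LILRB4+/+ SCG2-/- than in LILRB4+/+, and in 12 the unadjusted edgeR p of that difference was under 0.05, against 6.18% of all genes lower at that p. These 12 were Ankrd33b, Osgin2, Ptgs2, Serpinb2, Orai2, Cdk5r1, Cflar, Dusp16, Ptpre, Skil, Ralgds and Stx11. Over all 9877 genes, 0 passed in either direction for LILRB4+/+ SCG2-/- against LILRB4+/+ with edgeR, 482 higher (4.88%) and 610 lower stood at an unadjusted p under 0.05, DESeq2 called 13 (0.132%) and 162 (1.64%), and limma called 0 and 0. Both contrasts use the same variance estimate of each gene, and the 25 genes were chosen by a small p in one of them, so these counts are a description. The median log2 difference of the 25 genes from WT was 1.10 in LILRB4+/+ and 0.83 in LILRB4+/+ SCG2-/-.

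Among the 15 lower genes, Cdkn2c, an inhibitor of CDK4 and CDK6, stood at 15.6, 18.4 and 17 CPM in LILRB4+/+, 19.8, 21 and 23 CPM in LILRB4+/+ SCG2-/-, and 27.9, 36.6 and 33.6 CPM in WT (log2 -0.78, SE 0.13, edgeR adjusted p = 0.0564). Dhcr7, the last reductase of cholesterol synthesis, stood at 22.7, 31.5 and 24.9 CPM in LILRB4+/+, 26.5, 28.7 and 33.9 CPM in LILRB4+/+ SCG2-/-, and 42.4, 51.3 and 47.6 CPM in WT (log2 -0.75, SE 0.14, edgeR adjusted p = 0.0742). The LILRB4+/+ genotypes overlapped for Dhcr7 and lay below WT for both genes. Aurka, Plk1, Kif2c and Cep55, which act in spindle assembly and cytokinesis, had pooled log2 fold changes of -0.73, -0.69, -0.74 and -0.56. The others were H2afy2, Dctd, Tcf19, Dcakd, Armt1, Rpusd1, S1pr2, Ptk7 and Tfap4. Of the 15, 14 had a 95% interval for LILRB4+/+ SCG2-/- against LILRB4+/+ that held 0, the exception being Cep55 at 0.33 (0.03 to 0.64). Most genes have such an interval, since 4.88% of all genes were higher and 6.18% lower at an unadjusted edgeR p under 0.05. The count therefore does not set these 15 genes apart. The median log2 difference from WT was -0.84 in LILRB4+/+ and -0.61 in LILRB4+/+ SCG2-/-.

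**Figure D2:**
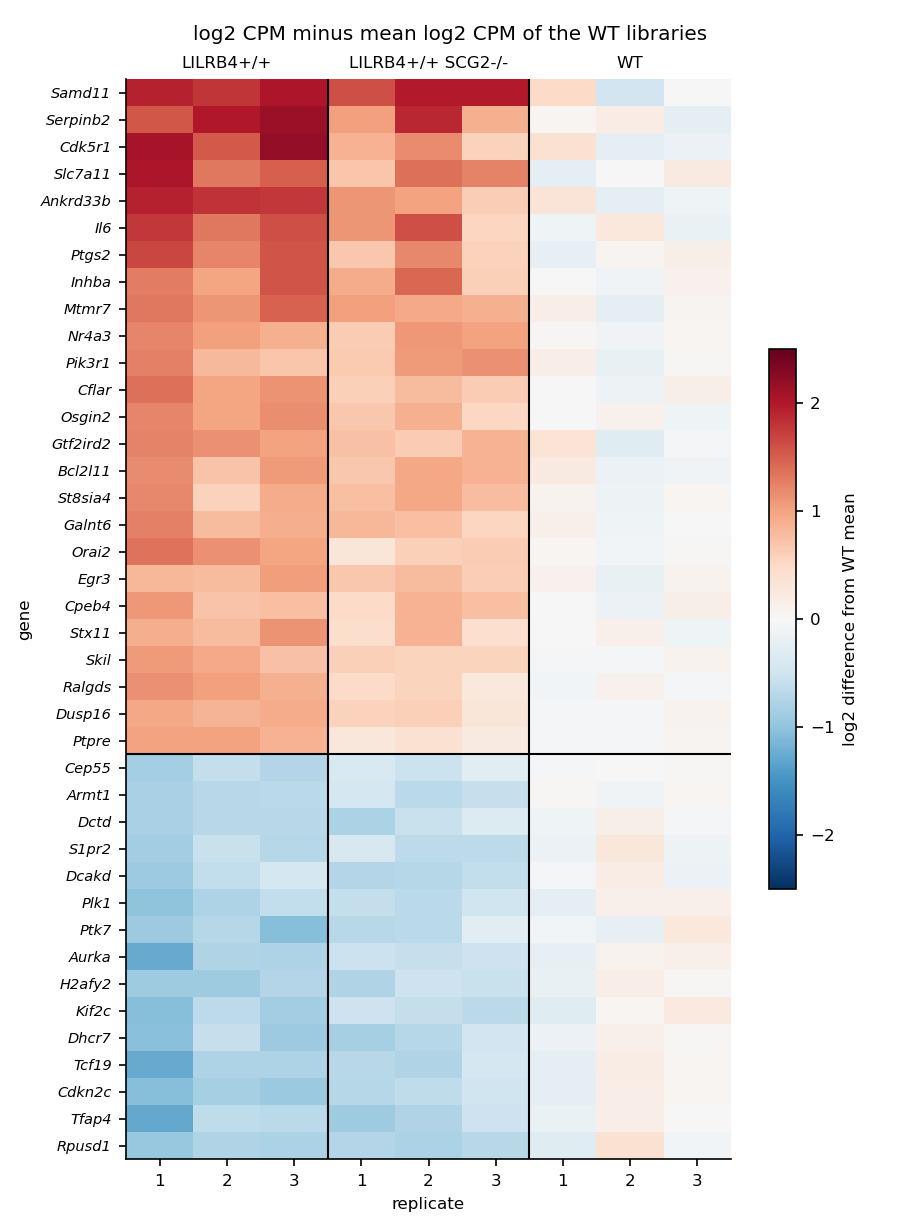
Log2 CPM of the 25 higher genes (above the line) and the 15 lower genes (below it) in each library, minus the mean log2 CPM of the 3 WT libraries; columns run from LILRB4+/+ through LILRB4+/+ SCG2-/- to WT. The rows were chosen for not overlapping WT, so their contrast with WT is given by the choice, and the colours show how the 6 LILRB4+/+ genotype libraries vary among themselves.

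**Figure D3:**
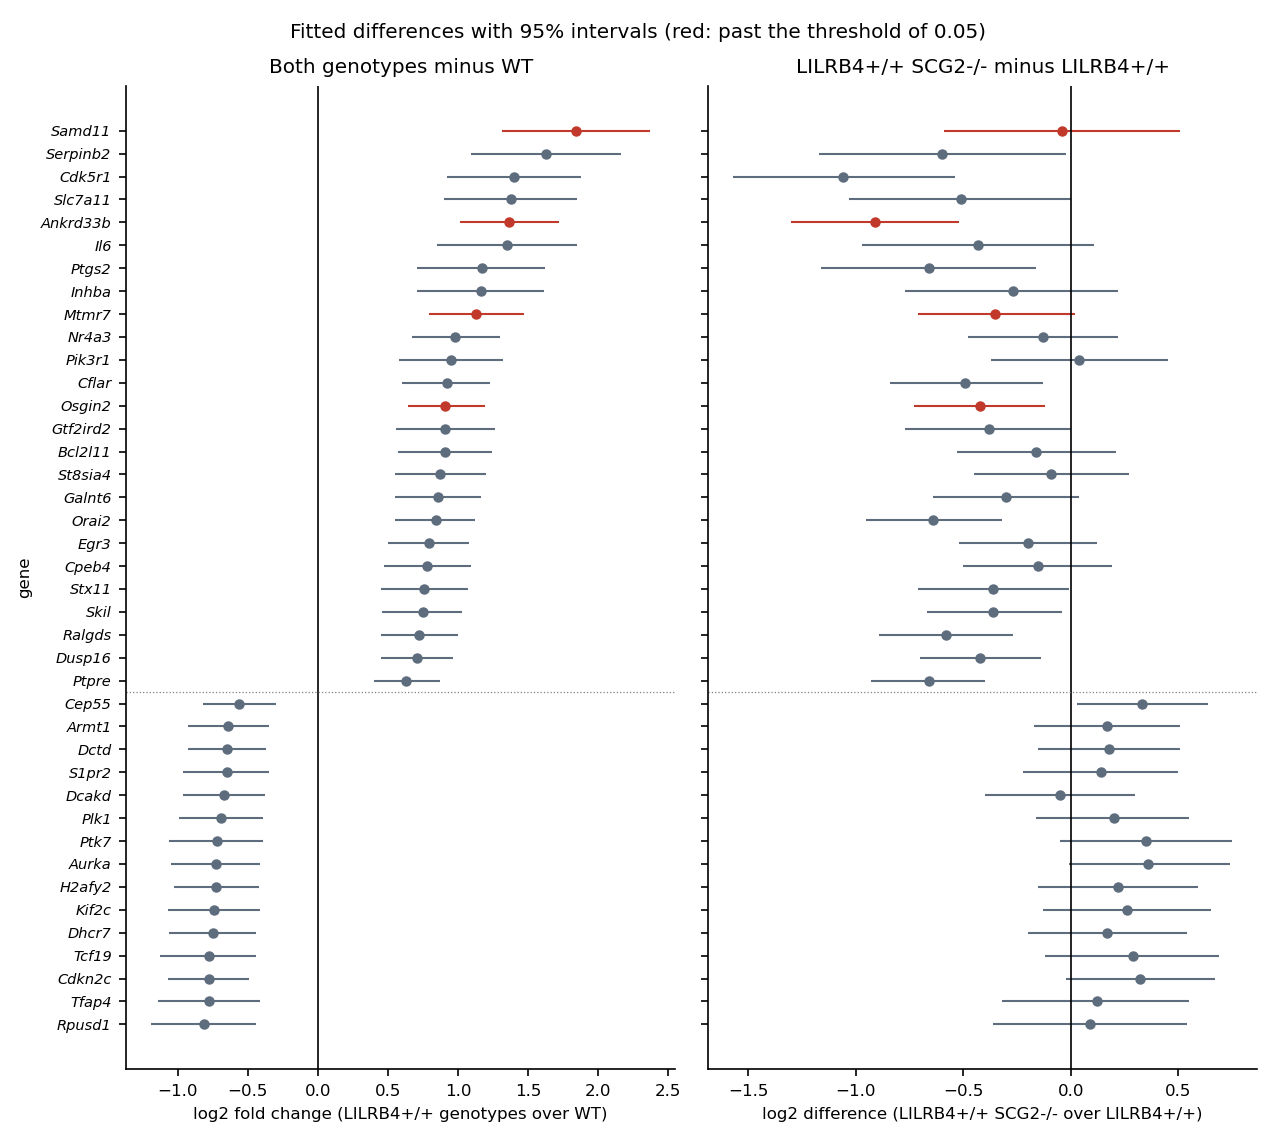
Fitted log2 differences with 95% intervals for the same 40 genes, for both LILRB4+/+ genotypes against WT (left panel) and for LILRB4+/+ SCG2-/- against LILRB4+/+ (right panel). The red genes passed the threshold in the left panel, and in the right panel the interval of Samd11 (-0.59 to 0.51) holds 0 while that of Ankrd33b (-1.30 to -0.52) does not.

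The promoters of 3 genes are shown because they carry the short motifs that were searched in these genes. The windows are from RefSeq on GRCm38.p6, from 250 bases before to 50 bases after the annotated start, 5′ to 3′ on the gene's strand. Capitals mark matches to AP-1 (TGANTCA), a NF-kB type motif (GGG and TTNCC with any 2 bases between them), CCAAT and the cell cycle homology region (TTTGAA), searched on both strands. The marked matches do not overlap one another in these 3 windows.
Il6, chr5:30012864-30013163, plus strand: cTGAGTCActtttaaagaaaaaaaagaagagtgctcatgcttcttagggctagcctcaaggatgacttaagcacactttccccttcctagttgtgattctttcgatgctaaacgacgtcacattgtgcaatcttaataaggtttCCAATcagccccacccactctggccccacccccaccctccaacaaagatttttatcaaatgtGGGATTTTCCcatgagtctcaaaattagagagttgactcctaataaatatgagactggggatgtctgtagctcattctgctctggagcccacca
Aurka, chr2:172370521-172370820, minus strand: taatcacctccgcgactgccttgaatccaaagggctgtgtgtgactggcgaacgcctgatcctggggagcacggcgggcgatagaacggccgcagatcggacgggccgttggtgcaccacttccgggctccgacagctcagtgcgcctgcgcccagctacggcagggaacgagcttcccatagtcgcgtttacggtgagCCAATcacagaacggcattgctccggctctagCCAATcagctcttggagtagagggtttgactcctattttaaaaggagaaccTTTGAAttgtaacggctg
Plk1, chr7:122159185-122159484, plus strand: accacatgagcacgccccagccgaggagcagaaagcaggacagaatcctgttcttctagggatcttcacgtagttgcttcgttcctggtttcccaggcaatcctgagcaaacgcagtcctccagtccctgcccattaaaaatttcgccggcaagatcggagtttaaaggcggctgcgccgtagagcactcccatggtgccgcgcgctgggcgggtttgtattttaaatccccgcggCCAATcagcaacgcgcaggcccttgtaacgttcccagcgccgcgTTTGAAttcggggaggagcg
Windows were found for 20 of the 25 higher and 13 of the 15 lower genes. TTTGAA was in 1 of the 20 higher windows (5%) and in 5 of the 13 lower windows (38.5%), against 17.9% of all 32817 windows. For each gene the window with the nearest RefSeq start was taken, without a limit of distance. The Kif2c window, 1 of these 5, spans 117178723 to 117179022 on the minus strand of chromosome 4. The deposited annotation places the 5′ end of Kif2c at 117182639, outside that window. CCAAT was in 40% of the higher, 30.8% of the lower and 37.4% of all windows. The NF-kB type motif was in the windows of Il6 and Bcl2l11 among the higher genes (10%) and of Rpusd1 among the lower ones (7.69%), against 4.8% of all windows. AP-1 was in the windows of Il6 and Serpinb2 (10%) and in 0% of the lower windows, against 7.81% of all. CRE (TGACGTCA) was in 0% of the higher windows, in that of S1pr2 among the lower ones (7.69%) and in 1.79% of all windows.

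Genes named in the study's title were then read in both genotypes. For some of them the deposited tables disagree. The count table and the counts recovered from FPKM differ in 56 values of 47 genes, and 47 of these values are in LILRB4+/+ libraries, 4 in LILRB4+/+ SCG2-/- and 5 in WT. In 37 of the 56 the difference is a whole multiple of 1000 counts, and 14 values, in 7 genes, are the same pair of counts exchanged between libraries of different genotypes. The count table holds the higher number in 45 of the 56. Il6 in LILRB4+/+ replicate 3 has 4376 counts in the count table and 6376 recovered counts. For Stat3, LILRB4+/+ replicate 2 has 14978 and LILRB4+/+ SCG2-/- replicate 2 has 9195 counts in the count table. Recovery from FPKM gave these values the other way round. How the tables came to differ cannot be told from them. The 4 genes that passed have the same counts in both tables.

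Il6 stood at 192, 140.0 and 172 CPM in LILRB4+/+, 121, 172 and 81.5 CPM in LILRB4+/+ SCG2-/-, and 52.1, 67.9 and 50.3 CPM in WT. All 6 LILRB4+/+ genotype libraries were above WT, with overlap between the genotypes. Its pooled log2 fold change was 1.35 with an SE of 0.23 in the count table, where the edgeR adjusted p was 0.0564. Recovered counts gave 1.45 and an edgeR adjusted p of 0.0795. Without LILRB4+/+ replicate 2 the edgeR adjusted p of Il6 was 0.0238, in a fit where 5.71% of all genes were called higher. It was under 0.05 in 2 of the 9 fits that each left out 1 library.

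Stat3 in the count table stood at 985, 627 and 607 CPM in LILRB4+/+, 544, 561 and 882 CPM in LILRB4+/+ SCG2-/-, and 489.6, 316 and 367 CPM in WT, with no overlap. In the recovered counts LILRB4+/+ replicate 2 was at 390.0 CPM, below the 467 CPM of WT replicate 1. Its log2 fold changes were 0.84 (edgeR adjusted p = 0.107) and 0.87 (edgeR adjusted p = 0.171). Socs3 had 0.85 (edgeR adjusted p = 0.0967), and 1 of its LILRB4+/+ SCG2-/- libraries, at 1150 CPM, lay under the highest WT library, at 1172 CPM.

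Lilr4b stood at 3549, 1767 and 2547 CPM in LILRB4+/+, 1979, 1968 and 2109 CPM in LILRB4+/+ SCG2-/-, and 1671, 767 and 833 CPM in WT. The groups did not overlap, and the log2 fold change was 1.08 (SE 0.29, edgeR adjusted p = 0.102). Lilrb4a, its near copy, had 0.95 (SE 0.33, edgeR adjusted p = 0.154), and 1 LILRB4+/+ SCG2-/- library, at 723 CPM, was below WT replicate 1, at 767 CPM. The fold change of Lilrb4a was 1.49 without WT replicate 1 and 0.65 without WT replicate 2. Reads may be split unevenly between these copies. Scg2 had 1 recovered count in LILRB4+/+ replicate 1 and in WT replicate 1 and 0 in all other libraries, where 3 counts (0.110 to 0.207 CPM) would still be allowed, so it could not check the knockout label. Arg1 and Nos2, which encode the arginine-consuming enzymes arginase 1 and inducible nitric oxide synthase, had log2 fold changes of 0.21 (edgeR adjusted p = 0.592) and 0.03 (edgeR adjusted p = 0.942). With recovered counts they were 0.25 and -0.04. Arg1 is one of the genes with exchanged values, and its log2 difference of LILRB4+/+ SCG2-/- from LILRB4+/+ was -1.02 (95% interval -1.59 to -0.46, edgeR adjusted p = 0.248) in the count table and -0.37 (-1.24 to 0.50, edgeR adjusted p = 0.841) with recovered counts.

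Gene groups are described by how many measured members had all 6 LILRB4+/+ genotype libraries outside the WT range, to be read against 4.45% above and 4.9% below over all genes. Leaving out a library can only keep or raise such a count. The share over all genes was not computed with fewer libraries, so counts given for fewer libraries have no background beside them. Measured members are those of the count table, which leaves out genes with under 100 counts in LILRB4+/+ replicate 1 or 3. Members low in LILRB4+/+ can thus be missing. With recovered counts the median log2 fold change of the IL-6, IL-12 and IL-10 family list was 0.67 in place of 1.35. For chemokine ligands it was 0.41 in place of 0.72, for NF-kB genes 0.74 in place of 0.76, and for mitosis genes -0.53 with both. In these groups no member passed the adjusted test. The lists and their members were chosen with earlier results of these data known. Their counts and the permutation p-values of their sums are therefore descriptions and not independent tests. The median log2 fold change over all genes was -0.01.

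NF-kB is the main inflammatory transcription factor. Of 32 measured genes of its inflammatory programme, 16 had all 6 libraries above WT and 0 below. In the higher direction 29 had an unadjusted edgeR p under 0.05, against 11.6% of all genes. The median log2 fold change was 0.76, with 0.93 in LILRB4+/+ and 0.59 in LILRB4+/+ SCG2-/- against the same WT libraries. Csf3, the gene of G-CSF, which drives granulocyte output, stood at 79, 55.4 and 130.2 CPM in LILRB4+/+, 31.4, 59.9 and 19 CPM in LILRB4+/+ SCG2-/-, and 14, 10.7 and 11.6 CPM in WT (log2 2.24, SE 0.40, edgeR adjusted p = 0.0742). Nfkb1, which encodes a subunit of NF-kB itself, stood at 1465, 682 and 1195 CPM in LILRB4+/+, 929.9, 1113 and 827 CPM in LILRB4+/+ SCG2-/-, and 543, 474 and 469 CPM in WT (log2 1.06, edgeR adjusted p = 0.0742). Neither gene overlapped WT, and the LILRB4+/+ genotypes overlapped in both.

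The feedback inhibitors of NF-kB signalling Tnfaip3, Nfkbiz and Tnip1 had log2 fold changes of 1.20, 0.83 and 0.82, and the chemokines Cxcl1 and Cxcl3 had 1.18 and 1.68. Some known NF-kB targets did not separate. Il1b, which encodes interleukin 1 beta, stood at 8577, 5700 and 5149 CPM in LILRB4+/+, 2918, 3214 and 1701 CPM in LILRB4+/+ SCG2-/-, and 1626, 3607 and 2225 CPM in WT, so LILRB4+/+ SCG2-/- lay within the WT range. Its log2 difference from WT was 1.38 in LILRB4+/+ and 0.07 in LILRB4+/+ SCG2-/-. The tables differ in this gene, with 138311 counts in the count table and 68311 recovered counts in LILRB4+/+ replicate 1. Without LILRB4+/+ replicate 2, 23 of the 32 NF-kB genes were called higher by edgeR, read against 5.71% of all genes in that fit.

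In the summed level of the 32 NF-kB genes, LILRB4+/+ had 38467, 31856 and 41198 CPM, LILRB4+/+ SCG2-/- had 23607, 28496 and 18844 CPM, and WT had 14517, 18850 and 14778 CPM. The lowest LILRB4+/+ SCG2-/- library lay just under the highest WT library, and the exact permutation p of 6 against 3 was 0.0476 (two-sided, 0.147 after Benjamini-Hochberg adjustment over 37 sums, smallest possible p 0.0238). The T and NK marker sum, given above, was highest in LILRB4+/+ replicate 1 and lowest in WT replicate 2, with an exact permutation p of 0.0714 (0.165 adjusted). All 27 of its measured members had a positive fold change (median 1.25), and 0 separated the groups. In the fit with that sum as a covariate the 25 higher genes had log2 fold changes of 0.64 to 1.66 and the 15 lower genes of -0.69 to -0.47. In the same fit Lilrb4a had 0.52, Lilr4b 0.61, Stat3 0.55, Socs3 0.61 and Il6 1.25, against 0.95, 1.08, 0.84, 0.85 and 1.35 without the covariate. Their edgeR adjusted p with it were 0.51, 0.35, 0.431, 0.426 and 0.146 in that order.

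Secreted factors were read as lists of their own. Of 9 measured cytokines of the IL-6, IL-12 and IL-10 families, 3 had no overlap (Il6, Il23a and Il12a), all of them higher. The tables differ in 2 of the 9, Il6 and Il10. The summed level of the 13 genes of this list averaged 1601 CPM in LILRB4+/+, 793 CPM in LILRB4+/+ SCG2-/- and 691 CPM in WT. The LILRB4+/+ genotypes overlapped WT in that sum (exact permutation p = 0.167, 0.294 adjusted). Il23a, a subunit of IL-23, stood at 155, 94.8 and 223 CPM in LILRB4+/+, 104, 144 and 62.9 CPM in LILRB4+/+ SCG2-/-, and 43.6, 44.1 and 28.1 CPM in WT (log2 1.73, SE 0.34, edgeR adjusted p = 0.0742). Its libraries of both LILRB4+/+ genotypes interleaved, all above WT. Of 10 colony-stimulating and growth factors, 3 had no overlap, namely Inhba, Csf3 and Hbegf, and 5 had none without LILRB4+/+ replicate 2 or without WT replicate 1. Inhba, the subunit of activin A, stood at 550.0, 446 and 676 CPM in LILRB4+/+, 428, 614 and 342 CPM in LILRB4+/+ SCG2-/-, and 224, 213 and 243 CPM in WT, and its difference of LILRB4+/+ SCG2-/- from LILRB4+/+ was -0.27 (-0.77 to 0.22). The summed level of the 12 genes of this list was 1475 to 2136 CPM in the LILRB4+/+ genotypes and 1286 to 1414 CPM in WT, with no overlap (exact permutation p = 0.0238, the smallest possible; 0.147 adjusted).

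Of 19 measured genes of MDSC suppression, 4 lay above the WT range in all 6 libraries and 0 below. In the higher direction 11 had an unadjusted edgeR p under 0.05, against 11.6% of all genes. Without LILRB4+/+ SCG2-/- replicate 3 the count above the WT range was 7. Ptgs2, which encodes cyclooxygenase 2 of prostaglandin synthesis, stood at 5665, 4154 and 5323 CPM in LILRB4+/+, 2828, 4104 and 2635 CPM in LILRB4+/+ SCG2-/-, and 1538, 1853 and 1976 CPM in WT (log2 1.17, SE 0.21, edgeR adjusted p = 0.0635). Slc7a11, the cystine transporter, stood at 768, 471 and 535 CPM in LILRB4+/+, 306, 489.8 and 449 CPM in LILRB4+/+ SCG2-/-, and 161, 189 and 222 CPM in WT (log2 1.38, SE 0.22, edgeR adjusted p = 0.0546). Both were above WT in every LILRB4+/+ genotype library. Slc7a2, a transporter of cationic amino acids such as arginine, had 1.22, and Tgfb1 had 0.55 in the count table and 0.34 in the recovered counts, where it overlapped WT.

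Of 18 genes of IL-6 reception and JAK-STAT3 signalling, 7 lay above WT in all 6 libraries with the count table (Il6, Stat3, Cish, Jak2, Jak1, Stat5b and Stat5a) and 4 with recovered counts (Il6, Cish, Jak2 and Jak1), where 1 lay below. The tables differ in 5 of the 18. Cish, a STAT5-induced inhibitor of cytokine signalling, stood at 299, 238 and 214 CPM in LILRB4+/+, 155, 217 and 155 CPM in LILRB4+/+ SCG2-/-, and 115, 142 and 100.5 CPM in WT (log2 0.82, edgeR adjusted p = 0.0742). Its lowest LILRB4+/+ genotype library was close above its highest WT library. The receptor chains Il6ra and Il6st had log2 fold changes of -0.29 and 0.14 and overlapped WT.

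Of 23 immediate-early and AP-1 genes, 4 were above WT without overlap (Nr4a3, Egr3, Dusp5 and Fosl2), while Fos and Jun, the prototype AP-1 subunits, had log2 fold changes of -0.05 and 0.02. The list's median was 0.23.

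Lists with more members below than above the WT range included those of cell division and cholesterol synthesis. Of 26 mitosis and spindle genes, 8 had all 6 libraries below WT and 0 above, and the median log2 fold change was -0.53. In the lower direction 20 had an unadjusted edgeR p under 0.05, against 10.1% of all genes. Plk1, the mitotic kinase, stood at 19.7, 23.2 and 25.8 CPM in LILRB4+/+, 26, 24.8 and 28 CPM in LILRB4+/+ SCG2-/-, and 33.3, 42.8 and 42.9 CPM in WT. Ccnb1, which encodes cyclin B1, stood at 23.6, 33 and 29.1 CPM in LILRB4+/+, 30.9, 31.9 and 36.2 CPM in LILRB4+/+ SCG2-/-, and 36.5, 63 and 61.8 CPM in WT (log2 -0.81). Both were lower in all 6 libraries, with Ccnb1 of LILRB4+/+ SCG2-/- replicate 3 just under WT replicate 1. Without WT replicate 1 the count below the WT range was 15 of 26. Mki67, a general marker of cycling cells, had a log2 fold change of 0.07 and overlapped.

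Of 23 genes of DNA replication, 9 had all 6 libraries below WT and 0 above, with a median of -0.36, and 16 were below without LILRB4+/+ SCG2-/- replicate 1. Mcm5, a helicase subunit, stood at 105, 136 and 128 CPM in LILRB4+/+, 172, 167 and 157 CPM in LILRB4+/+ SCG2-/-, and 179, 215 and 237 CPM in WT (log2 -0.56, edgeR adjusted p = 0.078). LILRB4+/+ SCG2-/- lay between LILRB4+/+ and WT for this gene, at 0.43 above LILRB4+/+ on the log2 scale (0.10 to 0.76).

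All 21 measured cholesterol synthesis genes had a negative fold change, 9 of them with no overlap, and the list's median was -0.41, with -0.46 in LILRB4+/+ and -0.38 in LILRB4+/+ SCG2-/- against the same WT libraries. Nsdhl, a sterol dehydrogenase, stood at 21.2, 29.3 and 25.7 CPM in LILRB4+/+, 26.6, 27.2 and 27.4 CPM in LILRB4+/+ SCG2-/-, and 33.2, 57 and 44.8 CPM in WT (log2 -0.78, SE 0.17, edgeR adjusted p = 0.0742). Sqle, squalene epoxidase, and Idi1, isopentenyl diphosphate isomerase, had -0.53 and -0.62 without overlap. Srebf2, the pathway's transcription factor, had -0.15 and overlapped WT. The summed level of the 24 genes of this list was 1589 to 2338 CPM in the LILRB4+/+ genotypes and 2132 to 2767 CPM in WT (exact permutation p = 0.0476, 0.147 adjusted).

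Of 22 type I interferon-stimulated genes, 6 had all 6 libraries below WT and 0 above, with a median of -0.41. The count below was 10 without WT replicate 1, and recovered counts gave 4 below and 1 above of 24. The summed level averaged 1116 CPM in LILRB4+/+, 812 CPM in LILRB4+/+ SCG2-/- and 1060 CPM in WT, and the LILRB4+/+ genotypes overlapped WT (exact permutation p = 0.452, 0.619 adjusted). Irf7, the interferon regulatory factor, stood at 82.5, 77.8 and 71.2 CPM in LILRB4+/+, 56.7, 60.5 and 55.9 CPM in LILRB4+/+ SCG2-/-, and 82.6, 129.8 and 95.8 CPM in WT (log2 -0.62, SE 0.14, edgeR adjusted p = 0.078). LILRB4+/+ replicate 1 and WT replicate 1 were nearly equal, and all LILRB4+/+ SCG2-/- libraries were lower than both. The list was not uniform, since Oasl1 had 1.11 and Ifih1 had 0.49, and the median difference from WT was -0.28 in LILRB4+/+ and -0.47 in LILRB4+/+ SCG2-/-.

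**Figure D4:**
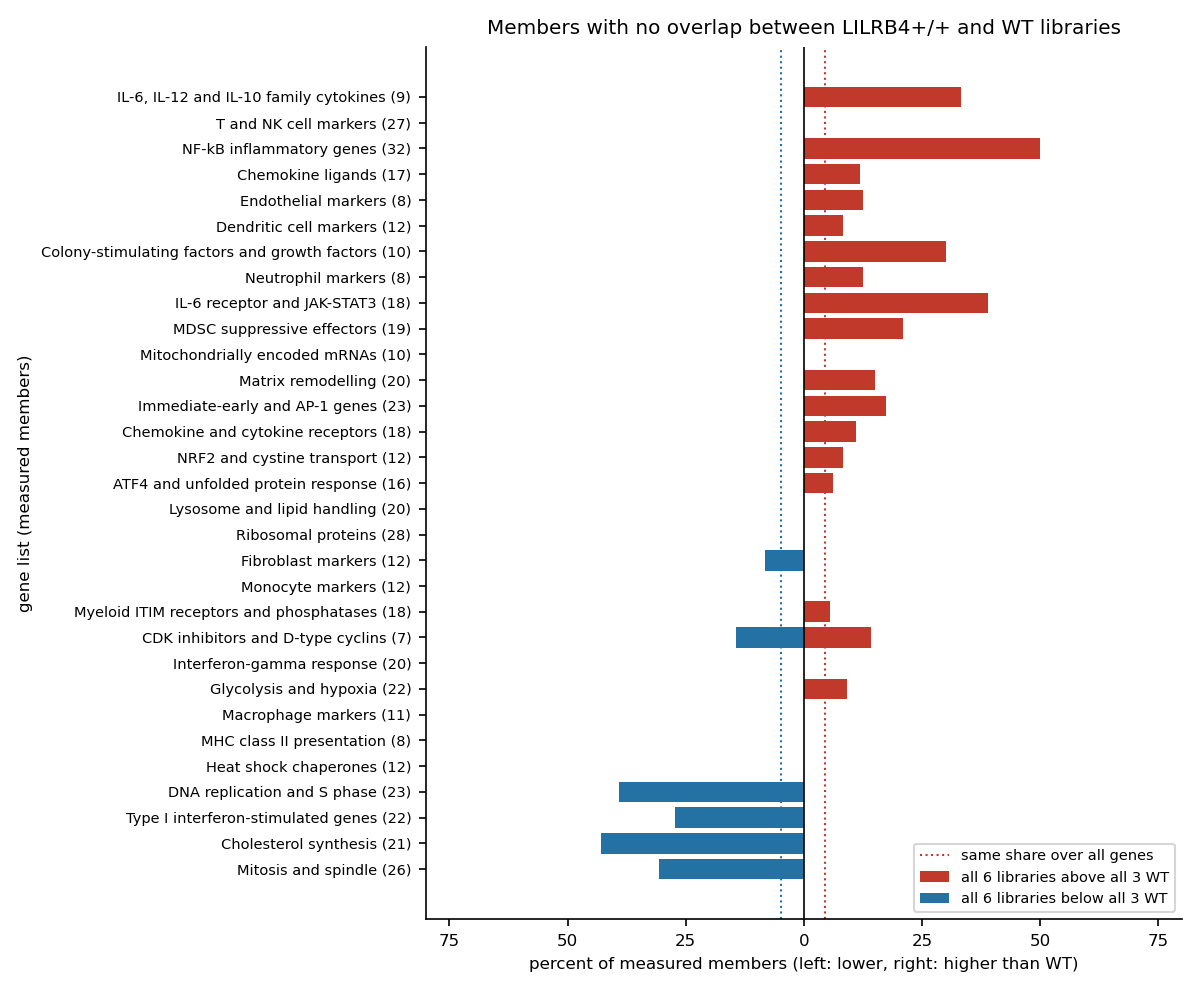
Share of the measured members of each gene list whose 6 LILRB4+/+ genotype libraries lay all above (red, to the right) or all below (blue, to the left) the 3 WT libraries, with lists of 7 or more measured members ordered by median log2 fold change. Dotted lines mark the same share over all genes, 4.45% above and 4.9% below. NF-kB genes reach 16 of 32 above and cholesterol synthesis genes 9 of 21 below. The lists were chosen with earlier results of these data known, so the shares are a description.

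**Figure D5:**
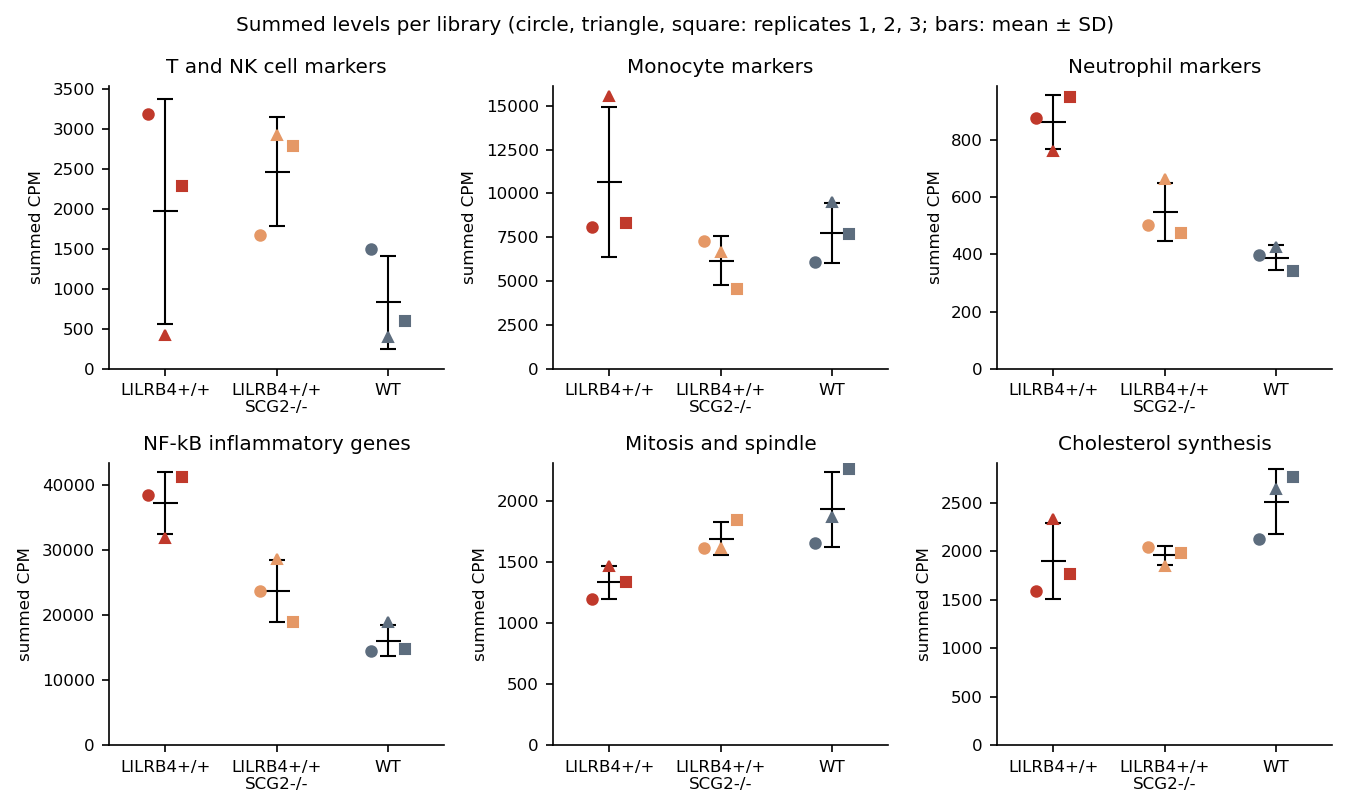
Summed CPM of 6 gene lists in each library, with LILRB4+/+ left, LILRB4+/+ SCG2-/- in the middle and WT right; symbols are replicates and bars the mean ± SD of 3 libraries. The T and NK marker sum of LILRB4+/+ replicate 2 (419 CPM) sits with WT replicates 2 and 3 (393 and 596 CPM), and its monocyte marker sum (15577 CPM) is the highest.

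In other lists the medians of the genotypes differed, which was not tested. Mitochondrially encoded mRNAs had a median log2 difference from WT of 0.72 in LILRB4+/+ and -0.15 in LILRB4+/+ SCG2-/-, heat shock chaperones -0.78 and 0.09, and myeloid ITIM receptors and phosphatases 0.21 and -0.50, and of these lists 1 gene, Traf6, lay outside the WT range in all 6 libraries. The summed chaperone level was 9423, 8290 and 11908 CPM in LILRB4+/+, 19201, 14094 and 13466 CPM in LILRB4+/+ SCG2-/-, and 21917, 10774 and 11608 CPM in WT. WT replicate 1 was the highest of all 9 libraries, and the other WT libraries were within the range of LILRB4+/+. Monocyte markers had a median of -0.09 and 0 of 12 members outside the WT range. At an unadjusted edgeR p under 0.05 stood 2 of the 12, both lower, against 10.1% of all genes. These were Ly6c1 at log2 -0.82 (edgeR adjusted p = 0.0807) and Ly6c2 at -0.63 (edgeR adjusted p = 0.202). With recovered counts Ly6c2 had -0.74. The sum of the 12 monocyte markers was 8084, 15577 and 8281 CPM in LILRB4+/+, 7290, 6631 and 4567 CPM in LILRB4+/+ SCG2-/-, and 6059, 9479 and 7677 CPM in WT, so the groups overlapped.

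Markers of other cells beside T and NK cells were read in the same libraries. The neutrophil list summed to 475 to 953 CPM in the LILRB4+/+ genotypes and 342 to 428 CPM in WT without overlap (exact permutation p = 0.0238, 0.147 adjusted), though as summed FPKM the groups overlapped. Of its 17 genes 8 were measured in the count table. Their median log2 difference from WT was 1.23 in LILRB4+/+ and 0.05 in LILRB4+/+ SCG2-/-, both taken from that table. The deposited tables differ in 4 of these 8 genes. The pooled median log2 fold change of the 8 genes was 0.66. Recovered counts, which cover 12 genes of the list, gave 0.32. Acod1 was the member above the WT range, and it averaged 444 CPM in the LILRB4+/+ genotypes and 185 CPM in WT. The list sum averaged 707 and 389 CPM in the same groups, so Acod1 was a large part of it. Acod1, the itaconate-making enzyme that activated monocytes also express, stood at 618, 335 and 657 CPM in LILRB4+/+, 309, 433 and 310.0 CPM in LILRB4+/+ SCG2-/-, and 240.1, 167 and 148 CPM in WT. B and plasma cell markers summed to 65.3 to 1428 CPM in the LILRB4+/+ genotypes and 125 to 884 CPM in WT, and fibroblast markers to 3582 to 6004 CPM in the LILRB4+/+ genotypes and 4612 to 5781 CPM in WT. Endothelial markers summed to 83.2 to 179.9 CPM in the LILRB4+/+ genotypes and 73 to 92.9 CPM in WT (exact permutation p = 0.0476, 0.147 adjusted). For dendritic cell markers the median log2 difference from WT was 0.70 in LILRB4+/+ and 0.94 in LILRB4+/+ SCG2-/-. Their sums were 581 to 1288 CPM in the LILRB4+/+ genotypes and 719 to 901 CPM in WT, with overlap. Mast cell and basophil markers summed to 21.8 to 82.8 CPM in the LILRB4+/+ genotypes and 20 to 38.1 CPM in WT (exact permutation p = 0.0714, 0.165 adjusted). Of 6 sex-linked transcripts, the sum was 153 to 322 CPM in the LILRB4+/+ genotypes and 67.4 to 143 CPM in WT without overlap (exact permutation p = 0.0238, 0.147 adjusted). Nearly all of that sum was Xist, and the Y-linked genes of the list were at 0 in all 9 libraries. The part of these cells in the gene results was not tested beyond the fit with T and NK markers.

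The count table leaves out genes with under 100 counts in LILRB4+/+ replicate 1 or 3, and 784 protein-coding genes with a WT mean of 100 or more recovered counts are among them. Genes outside it were therefore read from recovered counts, and those named here were chosen after their values were seen. Itgb8, an integrin subunit that activates TGF-beta, stood at 5.71, 3.1 and 6.67 CPM in LILRB4+/+, 4.15, 5.05 and 5.42 CPM in LILRB4+/+ SCG2-/-, and 1.52, 1.01 and 1.36 CPM in WT (log2 1.95, SE 0.32, edgeR adjusted p = 0.0668). Epha8, an ephrin receptor, stood at 2.34, 3.52 and 3.66 CPM in LILRB4+/+, 2.35, 4.29 and 6.1 CPM in LILRB4+/+ SCG2-/-, and 9.2, 12.3 and 10.5 CPM in WT (log2 -1.54, SE 0.27, edgeR adjusted p = 0.0795). Neither gene overlapped between the LILRB4+/+ genotypes and WT, and in both the LILRB4+/+ genotypes overlapped each other. Sele, which encodes the endothelial adhesion molecule E-selectin, had 2.05 (SE 0.40, edgeR adjusted p = 0.0898), at 1.51 to 3.43 CPM in the LILRB4+/+ genotypes and 0.438 to 0.798 CPM in WT. Over all 15743 genes, 642 (4.08%) lay above WT without overlap and 654 (4.15%) below.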

How the data were processed

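Poly-A RNA of sorted M-MDSCs was sequenced in 9 libraries with a strand-keeping kit, per the labels' protocols. HISAT2 2.0.5 and featureCounts 1.5.0-p3 were used, per the submitters' processing notes; no source used here gives the strand setting or the build, and 98.3% of gene identifiers found in the annotation matched GRCm38 at both ends. The authors deposited raw counts for 9877 genes and FPKM for 54532 genes. The deposited FPKM times gene length was scaled in each library by the median ratio of the deposited counts to that product. The scaled values were whole reads for 100% of values within a tolerance of 0.01 (recovered counts). The tables differed in 56 of 88893 values (47 genes, 41 of the values in LILRB4+/+ replicate 1). Apart from S100a8, membership of the count table matched a floor of 100 counts in both LILRB4+/+ replicate 1 and replicate 3 for protein-coding genes.

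Counts were fitted with edgeR 4.0.16 in R 4.3.3 (filterByExpr minimum 10, TMM, robust quasi-likelihood, 3 genotypes, 6 residual degrees of freedom), with the mean of both LILRB4+/+ genotypes against WT and Benjamini-Hochberg adjustment at 0.05. The difference between the LILRB4+/+ genotypes came from the same fit, with the same variance estimates. FPKM were tested with limma 3.58.1 on log2(FPKM + 1), for genes at 1 or more in at least 3 libraries. DESeq2 1.42.0, other scalings, filters, recovered counts, a replicate block, a T and NK marker covariate and each library left out were alternatives. Fits were tested on simulated data. CPM of single genes used TMM-scaled library sizes, those of sums and of genes outside the count table are from recovered counts. Limits from a count of 0 cover counting error only. Intervals are 95%.

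Named genes were to be the titled genes, the 15 higher and 10 lower genes with the largest fold change that passed in both tables without overlap (Samd11 and Ankrd33b), list members with the smallest p, up to 8 in each direction outside the count table that passed (none did), and the called genes with the smallest p between genotypes (all 4). The 25 and 15 genes and those outside the count table, and list members beyond this rule, were named after seeing values, since few genes passed. The members and lists were chosen with earlier results of these data known. Gene symbols that software had turned into dates (17 and 27) were followed by identifier.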

Additional observations from a re-analysis of the deposited data

Results flagged for a closer look

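A library stood far from the other 5 of the LILRB4+/+ genotypes in 5 of 83 values tested (46 genes and 37 summed lists), and chance alone is set to give about 1 in 20. LILRB4+/+ replicate 1 had 1460 CPM of Lilrb4a, against 723 to 885 CPM in the others, and 5992 CPM summed over the Lilrb4 locus and titled genes. LILRB4+/+ replicate 2 had the highest sum of CDK inhibitors and D-type cyclins, at 1456 CPM, and of monocyte markers, at 15577 CPM. LILRB4+/+ replicate 3 had 175 CPM of erythroid and platelet markers, against 49.2 to 95.5 CPM in the others.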

How the results depend on the processing

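The 4 higher genes of the pooled comparison became 1 with a 2-group fit, 509 with DESeq2, 0 with upper-quartile factors, 2 with recovered counts of all genes, 10 with recovered counts of the count table's genes, 10 when genes with differing table values were dropped, 0 with the T and NK covariate and 0 with the replicate block; RLE factors, no filter and a minimum of 50 gave 4. The 0 lower genes became 215 with DESeq2. Genes also required to differ in each genotype gave 425 higher and 164 lower with DESeq2, and otherwise the same numbers as the pooled count in each of these settings; the 2-group fit cannot give them. Leaving out each library in turn gave 0 to 564 higher and 0 to 189 lower genes (0 to 539 and 0 to 158 where each genotype had to differ), with 27 higher and 3 lower without SCG2 knockout replicate 3, 7 and 3 without WT replicate 1, and the highest without LILRB4 replicate 2. FPKM gave 0 in each direction, 4 higher with a pseudocount of 0.1, 2 with edgeR on recovered counts, and 0 to 368 higher and 0 to 85 lower leaving out libraries. The cause was not tested.

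Of 916 alternative values of 46 named genes, 7 changed sign, all of Nos2 (main value 0.03, -0.07 to 0.15 leaving out libraries; -0.05 with upper-quartile factors, -0.04 and -0.03 with recovered counts, -0.15 with the covariate, and -0.04, -0.07 and -0.05 without LILRB4 replicate 1, SCG2 knockout replicate 3 and WT replicate 1). The ratio of the monocyte marker sum was 0.996 with FPKM, against 1.09 with CPM. Same-numbered libraries of different genotypes correlated at -0.56 to 0.64 in their deviations from the genotype mean. They were not compared with differently numbered libraries, so whether the replicate numbers pair the samples was not tested. On leaving out libraries (chosen after seeing the data), the NF-kB genes above the WT range numbered 16 to 24, MDSC effectors 4 to 7, growth factors 3 to 5 and immediate-early genes 4 to 6. Below it, mitosis genes numbered 8 to 15, DNA replication genes 9 to 16, cholesterol genes 9 to 13 and interferon-stimulated genes 6 to 10. Leaving out a library can only keep or raise these counts, so their lower ends are fixed by the full data and do not show stability. The share over all genes was not computed with fewer libraries.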
